A study of Mus musculus with 14 samples.

Results

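Imprinted genes are expressed from the maternal or the paternal copy alone in the cells where the imprint acts, because DNA methylation laid down in the egg or the sperm marks a control region on 1 of the 2 copies. The accessibility of chromatin at 45 mouse imprinted genes was followed in MPP3 and LT-HSC that carried a Dnmt3a mutation, an Npm1 mutation, both or neither. The genes form 19 clusters, each a gene or a group of neighbours. A region of the deposited ATAC-seq table counted as theirs where it lay within 10 kb of the RefSeq bounds of a listed gene (build mm10) and its mean deposited value over all libraries was at least 30. Of 1642 regions that close to a listed gene, 390 (23.8%) reached that level, against 134465 of all 705361 deposited regions (19.1%). The lowest mean value inside the limit was 30, and the highest outside it was 29.9. The 390 regions belonged to 43 of the 45 genes and 18 of the 19 clusters. Ndn, a growth-suppressing protein of neurons, and Slc38a4, an amino acid transporter, had no region at that level.

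Cells came from bone marrow of young C57BL/6J mice of the genotypes Dnmt3a-flR878H/+, Npm1-frt/+, Dnmt3a-flR878H/+;Npm1-frt/+ or WT (Mx-Cre), called Dnmt3a, Npm1, Dnmt3a;Npm1 and WT here. Recipients were young CD45.1 mice, lethally irradiated and given 1000000 whole marrow cells each. Every recipient, WT grafts included, had poly(I:C) 4 weeks after the graft and tamoxifen 4 weeks later, and marrow was taken after 4 more weeks. Mx-Cre, a recombinase that poly(I:C) switches on through the interferon response, is named in the WT label only, and no label names the recombinase that acts on the frt allele or a gate that separates donor from recipient cells. LT-HSC are long-term blood stem cells, and MPP3 are multipotent progenitors with a myeloid bias. MPP3 had 2 Dnmt3a, 2 Npm1, 1 Dnmt3a;Npm1 and 2 WT libraries, and LT-HSC had 1 Dnmt3a, 2 Npm1, 2 Dnmt3a;Npm1 and 2 WT libraries. The labels do not say that libraries of a group came from separate mice, so p-values measure only the spread between libraries, which may be technical. The table holds no allele sequences, so genotypes rest on the labels.

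Estimated reads in regions were 7300000 to 61200000 per library, and the share of a library's signal that fell in the 134465 tested regions was 41.0% to 73.6%. That share was lowest in the LT-HSC Npm1 libraries (44.7% and 41.0%), against 68.2% and 54.8% in LT-HSC WT. In the MPP3 libraries the myeloid marker regions (Mpo, Elane, Ctsg and others) summed to 6150 to 11049, and in LT-HSC libraries to 4262 to 5680, with no overlap. LT-HSC marker regions (Hlf, Mecom, Procr and others) summed to 7609 to 9872 in MPP3 and to 6723 to 11473 in LT-HSC, which overlap. Markers of B, T, erythroid and niche cells were present in every library, with sums in MPP3 of 3941 to 5377, 2537 to 3058, 2086 to 3655 and 3349 to 7750, against 4541 to 7947, 2706 to 4097, 1494 to 3709 and 2718 to 5120 in LT-HSC. The part of such cells in the results below was not tested.

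An imprint is set in germ cells by Dnmt3a with its partner Dnmt3l, and is then copied at each cell division by Dnmt1, while Zfp57 and Trim28 shield the marked copy when the rest of the genome is erased after fertilization. In blood, Cdkn1c (p57, a cell-cycle inhibitor), H19 and the Dlk1-Meg3 locus are known for holding mouse stem cells in quiescence. The R878H mutation of Dnmt3a, the mouse form of the commonest DNMT3A mutation in human myeloid leukaemia, weakens the methyltransferase. The labels' titles give the Npm1 allele as Npm1c, the leukaemia form of nucleophosmin that is held in the cytoplasm. The deposited values do not separate the maternal from the paternal copy. A lower value may mean fewer cells with an open region or less open chromatin per cell, and these cannot be told apart.

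Promoters of 5 paternally expressed genes with germline methylation on the maternal copy are printed here from RefSeq (GRCm38.p6). Each window runs from 250 bases before to 50 after the start, 5′ to 3′ on the gene's strand. The bounds of the methylated regions were not available, so a window may hold only a part of one. Capitals mark TGCCGC, the hexamer that ZFP57 binds when its CG is methylated, or its reverse complement GCGGCA. Kcnq1ot1 (chr7:143296498-143296797, minus strand) is the antisense RNA that silences its neighbours, Peg3 (chr7:6730370-6730669, minus) a zinc finger protein, and Mest (chr6:30737800-30738099, plus) a hydrolase-fold protein of the mesoderm. Nnat (chr2:157559828-157560127, plus) encodes neuronatin of the endoplasmic reticulum, and Plagl1 (chr10:13090582-13090881, plus) a zinc finger factor that restrains growth.
Kcnq1ot1: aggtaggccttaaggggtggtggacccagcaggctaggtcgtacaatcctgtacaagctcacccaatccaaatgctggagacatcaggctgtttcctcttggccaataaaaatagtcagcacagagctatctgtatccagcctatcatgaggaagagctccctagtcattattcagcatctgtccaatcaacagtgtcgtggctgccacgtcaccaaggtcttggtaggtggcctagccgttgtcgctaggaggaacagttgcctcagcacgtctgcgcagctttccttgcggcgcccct
Peg3: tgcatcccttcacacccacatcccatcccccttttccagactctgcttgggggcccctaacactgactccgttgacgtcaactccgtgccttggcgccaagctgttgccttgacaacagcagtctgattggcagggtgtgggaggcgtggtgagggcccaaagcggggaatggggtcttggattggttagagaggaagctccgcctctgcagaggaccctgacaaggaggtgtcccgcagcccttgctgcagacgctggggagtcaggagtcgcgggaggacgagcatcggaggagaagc
Mest: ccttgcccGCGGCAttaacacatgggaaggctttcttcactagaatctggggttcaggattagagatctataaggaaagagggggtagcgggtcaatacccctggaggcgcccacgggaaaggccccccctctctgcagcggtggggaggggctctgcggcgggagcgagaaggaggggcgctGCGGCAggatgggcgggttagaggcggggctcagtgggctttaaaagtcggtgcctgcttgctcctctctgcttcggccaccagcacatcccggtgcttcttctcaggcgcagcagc
Nnat: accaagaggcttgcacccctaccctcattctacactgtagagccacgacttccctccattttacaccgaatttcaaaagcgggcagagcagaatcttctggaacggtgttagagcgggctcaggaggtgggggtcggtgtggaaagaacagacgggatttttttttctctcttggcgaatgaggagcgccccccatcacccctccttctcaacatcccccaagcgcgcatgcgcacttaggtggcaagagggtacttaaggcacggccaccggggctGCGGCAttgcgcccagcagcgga
Plagl1: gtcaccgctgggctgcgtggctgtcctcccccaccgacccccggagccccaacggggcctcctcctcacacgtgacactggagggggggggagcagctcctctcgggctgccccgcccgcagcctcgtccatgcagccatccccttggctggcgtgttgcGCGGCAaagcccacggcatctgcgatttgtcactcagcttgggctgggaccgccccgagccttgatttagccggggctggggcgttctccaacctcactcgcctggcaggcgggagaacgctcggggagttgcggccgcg
These windows hold 9 CG dinucleotides in Kcnq1ot1, 13 in Peg3, 17 in Mest, 17 in Nnat and 26 in Plagl1. The hexamer, always in its reverse complement, has 2 matches in Mest, 1 each in Nnat and Plagl1 and 0 in the Kcnq1ot1 and Peg3 windows. Sequence beyond the windows was not searched, so 0 matches do not mean that a locus lacks the hexamer.

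RefSeq gave 55 promoter windows for 35 of the 45 genes. The genes not matched were H19, Kcnq1, Cdkn1c, Rtl1, Peg10, Sgce, Nespas, Impact, Peg13 and Trappc9. The hexamer, searched on both strands, lay in 10 of the 55 windows (18.2%), against 11.6% of all 32851 windows. Each match adds a CG, so CG-rich windows hold it more often. Of the windows with a tested region over them, 7 of 35 imprinted ones (20%) held it, against 18.5% of 17549. A tested region covered 35 of the 55 imprinted windows (63.6%), against 53.4% of all windows. The imprinted windows with such a region had a median of 17 CG dinucleotides, and the 20 without had a median of 6. All windows with a region had a median of 19. The windows without one were those of Zim1, Snrpn, Ndn, Mkrn3, Ddc, Dlk1, Meg3, Rian, Mirg and Slc38a4, with 1 window each of Asb4, Igf2 and Grb10. The Meg3 window at chr12:109540746-109541045 has 13 CG dinucleotides and that of Zim1 has 20, so some CG-rich windows were among them.

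**Figure D1:**
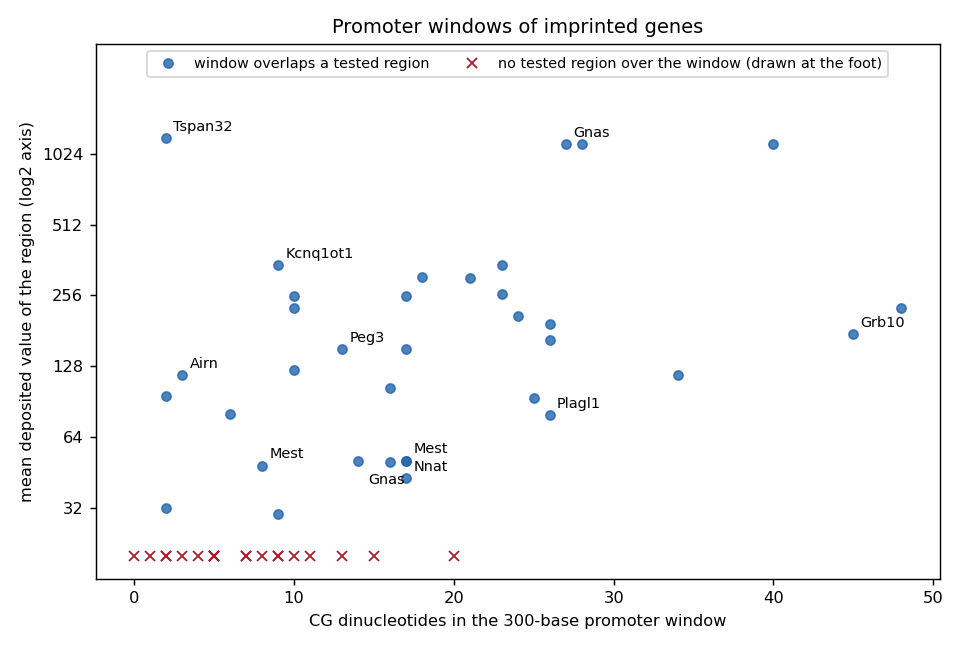
Number of CG dinucleotides in each 300-base promoter window of an imprinted gene (x axis) and mean deposited value of the tested region over it (y axis, log scale), with crosses at the foot for windows without a tested region. The windows of Gnas and Tspan32 carried the highest values, 1129.8 and 1192.7, at 27 to 40 and at 2 CG dinucleotides.

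Most of the 390 regions were weak. Their median mean value was 45.0, against 45.7 over all tested regions, and 65 (16.7%) reached 100, against 18.7% of all. The 29 regions over an imprinted promoter had a median of 122.9, and 18 of them (62.1%) reached 100. Of the other 361 regions, 47 (13.0%) did. Inside the bounds of the genes lay 301 regions, and 54 of the 390 lay near 2 or more of the listed genes. Within a group of 2 libraries, log2 values over the 390 regions correlated with r of 0.41 in MPP3 Dnmt3a to 0.87 in MPP3 Npm1, across regions, which are not independent.

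The neighbouring Igf2-H19 cluster and Kcnq1 domain on chromosome 7 held 15 and 104 regions. In the values that follow, a library's deposited value was divided by its normalization factor and is called scaled signal. Ranges are the lowest, median and highest of the 7 libraries of a cell type. Values are totals over a region, not corrected for its length, so a longer region can rank higher as strongest. The median length of the 390 regions was 728 bp, and the regions that rank highest are longer. The strongest region of all 390 (chr7:143003556-143010647) lies over the promoter of Tspan32, a tetraspanin of blood cells at the edge of the domain, with a scaled signal of 868.0, 1209.2 and 1823.5 in MPP3 and 526.5, 958.1 and 1411.8 in LT-HSC. Cd81, a tetraspanin of immune cell membranes, had 151.1, 304.1 and 532.8 in MPP3 and 115.5, 350.1 and 504.7 in LT-HSC over its promoter. The region over the Kcnq1ot1 promoter printed above (chr7:143294877-143297164), inside the potassium channel gene Kcnq1, had 222.3, 324.3 and 506.7 in MPP3 and 155.7, 323.7 and 396.9 in LT-HSC. It was therefore open in every library, at the level of Cd81, and the cell types overlapped.

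The genes that Kcnq1ot1 silences on the paternal copy followed with lower values. A region by Cdkn1c (chr7:143464566-143465537) had 42.5, 159.8 and 201.2 in MPP3 and 59.1, 144.0 and 212.5 in LT-HSC. Phlda2, a brake on placental growth, had 82.4, 190.1 and 209.0 in MPP3 and 60.8, 160.5 and 306.0 in LT-HSC. Ascl2, a helix-loop-helix factor of trophoblast and gut stem cells, had 107.6, 231.8 and 323.0 in MPP3 and 208.5, 283.5 and 330.8 in LT-HSC over its promoter. Slc22a18, an organic cation transporter, had 62.3, 92.9 and 98.4 in MPP3 and 38.2, 119.7 and 142.0 in LT-HSC. Ranges of the cell types overlapped for each of these 4 genes. In the Igf2-H19 cluster the strongest region (chr7:142658154-142660195) covers a promoter of Igf2, the fetal growth factor expressed from the paternal copy, with 105.0, 124.9 and 318.4 in MPP3 and 126.5, 268.8 and 293.6 in LT-HSC. Near H19, the maternally expressed RNA that shares its enhancers, regions were weak, and the one at chr7:142570432-142571221 had 10.1, 25.2 and 73.2 in MPP3 and 25.1, 63.0 and 115.8 in LT-HSC.

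**Figure D2:**
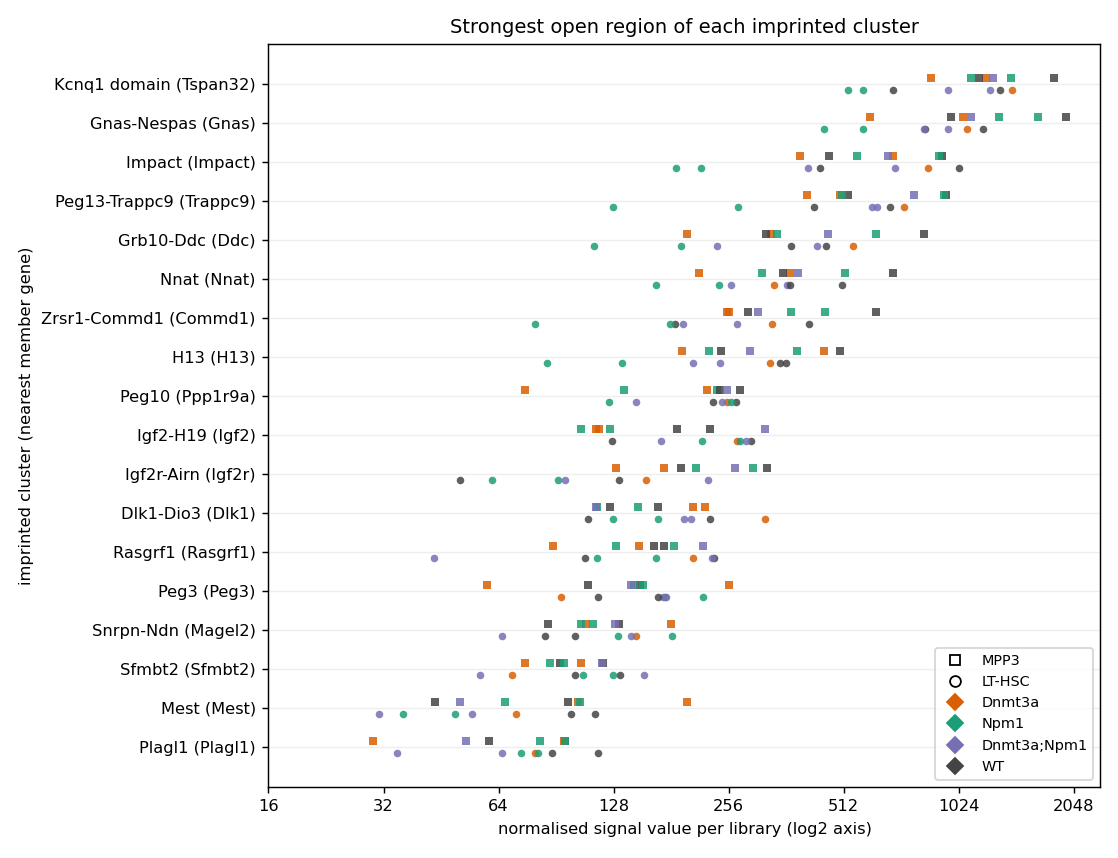
Scaled signal (log2 axis) of the strongest region of each of the 18 clusters in all 14 libraries, with MPP3 (squares) above LT-HSC (circles) and colour for genotype. Values are totals over a region and were not corrected for its length. Tspan32 in the Kcnq1 domain and Gnas lie highest, at 868.0 to 1823.5 and 599.5 to 1953.0 in MPP3, and Plagl1 and Mest are among the lowest.

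Gnas, the stimulatory G protein alpha subunit, had the second strongest region (chr2:174326494-174331421), with 599.5, 1105.6 and 1953.0 in MPP3 and 456.0, 834.8 and 1184.8 in LT-HSC. It covers several Gnas promoter windows, at chr2:174327499-174327798, chr2:174327518-174327817 and chr2:174329756-174330055. Its value is a total over these starts and cannot be assigned to any one of them. An upstream Gnas promoter (chr2:174283993-174284747), in the part of the locus that also makes the antisense RNA Nespas, had 17.5, 48.1 and 56.2 in MPP3 and 13.1, 64.5 and 84.3 in LT-HSC. Within the locus the region over several promoter windows, which is also the longer, was thus above the upstream one in every library. Impact, an inhibitor of the kinase Gcn2, had 5 regions with a median mean value of 224.6, the highest of any cluster, and its strongest (chr18:12972723-12974753) had 393.4, 669.0 and 927.6 in MPP3 and 186.0, 444.6 and 1026.7 in LT-HSC. Trappc9, a vesicle transport protein whose gene contains the noncoding imprinted Peg13, had 409.7, 524.4 and 950.1 in MPP3 and 127.5, 605.9 and 737.0 in LT-HSC at chr15:73060024-73061648. Among the neighbours of Zrsr1, a splicing factor gene inside Commd1, the Commd1 promoter (chr11:22981595-22982624) had 151.5, 248.3 and 468.0 in MPP3 and 103.5, 281.2 and 365.8 in LT-HSC. A region over the Zrsr1 promoter (chr11:22971719-22973260) had 147.4, 262.5 and 428.4 in MPP3 and 66.0, 210.3 and 277.8 in LT-HSC. Commd1 is an adaptor of copper handling and NF-kB control. The cell types overlapped at each of these regions.

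The other printed promoters were weaker. The Peg3 promoter region (chr7:6728493-6730541), which also covers the start of Usp29, a deubiquitinase-family gene transcribed the other way, had 59.6, 144.4 and 256.0 in MPP3 and 93.3, 172.9 and 219.5 in LT-HSC. Plagl1 (chr10:13090278-13091309) had 30, 82.0 and 95.8 in MPP3 and 34.7, 79.6 and 116.2 in LT-HSC. The Mest promoter (chr6:30737924-30738532) had 33.5, 51.4 and 94.9 in MPP3 and 6.9, 54.3 and 94.5 in LT-HSC, and Nnat (chr2:157559961-157560661) had 4.2, 32.8 and 51.4 in MPP3 and 20.1, 57.0 and 110.4 in LT-HSC. A region 3212 bp beyond Nnat, over the promoter of its host gene Blcap, was the stronger of the pair with 213.6, 370.0 and 689.7 in MPP3 and 165.0, 336.5 and 506.1 in LT-HSC. Grb10, an adaptor that restrains insulin receptor signalling, had 110.3, 151.5 and 209.8 in MPP3 and 115.5, 192.6 and 268.8 in LT-HSC over its CG-rich promoter (chr11:12036312-12038006), whose window has 45 CG dinucleotides. In the Grb10-Ddc cluster the highest mean value, 430.9, lay 4201 bp outside Ddc, the dopa decarboxylase gene, over the promoter of Fignl1.

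Magel2, a ubiquitin ligase partner of the Prader-Willi region, carried the strongest region of the Snrpn-Ndn cluster (chr7:62376898-62378958), with 86.1, 112.9 and 180.8 in MPP3 and 65.3, 131.7 and 181.5 in LT-HSC. The cluster had 6 regions in all. Its best known member, the splicing protein gene Snrpn, had no tested region over any of its 4 promoter windows listed. In the Igf2r-Airn cluster the promoter of Airn, the antisense RNA that silences the Igf2 receptor gene in cis (chr17:12741041-12742158), had 51.4, 76.0 and 121.1 in MPP3 and 95.5, 131.3 and 218.0 in LT-HSC. The Igf2r promoter (chr17:12768850-12770089) had 73.2, 105.5 and 175.5 in MPP3 and 33.3, 118.5 and 168.8 in LT-HSC. Dlk1-Dio3, with 27 regions, had a median mean value of 46.2, and its strongest region (chr12:109444874-109446963), 5522 bp outside the membrane protein gene Dlk1, had 115.2, 148.7 and 222.6 in MPP3 and 109.9, 195.9 and 318.2 in LT-HSC. The promoter of Dio3, a deiodinase that inactivates thyroid hormone (chr12:110277915-110279346), had 48.1, 66.7 and 140.9 in MPP3 and 54.5, 118.5 and 222.2 in LT-HSC.

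Of the remaining clusters, Peg10 held 41 regions. Its strongest (mean value 225.6) lay over the promoter of Ppp1r9a, the actin-binding neurabin, with 74.9, 238.6 and 273.8 in MPP3 and 124.5, 245.8 and 267.5 in LT-HSC. H13, a signal peptide peptidase gene, had 20 regions and a highest mean value of 311.2. Rasgrf1, a Ras exchange factor of neurons, had 16 regions with 165.6 as the highest, and Sfmbt2, a polycomb-group gene, had 7 with 106.9 as the highest. Where regions are compared, within a cluster or between clusters, values were not corrected for region length.

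MPP3 and LT-HSC were compared first, over all 4 genotypes. None of the 390 regions passed the threshold of the limma test (Benjamini-Hochberg adjusted p under 0.05 over all 134465 regions), against 0.0937% of all tested regions (0.0855% higher and 0.00818% lower in MPP3). At an unadjusted p under 0.05, 14 were higher and 14 lower in MPP3 (7.2%), against 8.91% of all regions. The median log2 difference was 0.04, the same as over all regions, with an interquartile range of -0.29 to 0.35. Log2 differences are of scaled signal plus 4, which understates differences of low regions, and SE is limma's moderated standard error. The background shows that the test made calls elsewhere, and all 3 calls in the myeloid marker list were at Mpo, the neutrophil peroxidase, where the largest was 1.66 (SE 0.34, adjusted p = 0.0377, limma).

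By cluster the medians differed in sign. In Dlk1-Dio3 the median log2 difference was -0.50, and 3 of 27 regions had a positive difference. The Mirg region at chr12:109749698-109750919, 240 bp outside the gene of this microRNA host RNA, had 33.4, 47.0 and 52.7 in MPP3 and 33.2, 108.7 and 165.0 in LT-HSC (log2 difference -1.04, SE 0.36, adjusted p = 0.325 by limma). LT-HSC Dnmt3a;Npm1 A, at 33.2, was the single LT-HSC library that did not lie above every MPP3 library. The Igf2-H19 median was -0.41 with 4 of 15 regions positive, and the Kcnq1 domain median was -0.08 with 41 of 104. At the other end, Peg10 had a median of 0.45 with 27 of 41 regions positive and Zrsr1-Commd1 a median of 0.45 with 16 of 20. In Igf2r-Airn the median was 0.34 with 18 of 23, and all 5 Impact regions were positive, with a median of 0.34. Over all tested regions whose mean value reached 100 the median was 0.20 with 71.6% positive, and below 100 it was -0.02 with 48.5%. Of the Impact regions 4 reached 100, as did 6 of 23 in Igf2r-Airn and 22 of 104 in the Kcnq1 domain. In Peg10 3 of 41 did, in Zrsr1-Commd1 3 of 20 and in Dlk1-Dio3 2 of 27. The part of signal level in the cluster medians was not tested. No cluster held a region past the adjusted threshold, and neighbouring regions of a cluster are not independent.

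The smallest adjusted p among the 390 was 0.109 by limma, at a region 8435 bp outside Ppp1r9a (chr6:5174096-5175093), with 72.3, 117.2 and 180.8 in MPP3 and 16.5, 42.6 and 77.4 in LT-HSC (log2 difference 1.31, SE 0.33). In Trappc9, chr15:72836897-72837642 had 74.2, 107.6 and 151.1 in MPP3 and 21.0, 43.5 and 89.4 in LT-HSC (1.26, SE 0.34, adjusted p = 0.137 by limma). The Igf2r region at chr17:12754437-12755608 had 129.6, 210.0 and 323.0 in MPP3 and 50.6, 95.5 and 226.7 in LT-HSC (1.00, SE 0.30, adjusted p = 0.211 by limma). The Airn promoter, given above, lay the other way (-0.70, SE 0.30, adjusted p = 0.485 by limma). Among the Kcnq1 regions, chr7:143329610-143330856 had 11.1, 30.6 and 68.7 in MPP3 and 26.1, 85 and 109.5 in LT-HSC (-1.29, SE 0.40, adjusted p = 0.248 by limma). A single imprinted region did not overlap between the cell types. It lay 9649 bp outside Sgce, the epsilon-sarcoglycan gene (chr6:4664303-4664701), with 22.4, 42.5 and 67.6 in MPP3 and 1.7, 13.1 and 19.5 in LT-HSC (1.48, SE 0.60, adjusted p = 0.444 by limma). Of all tested regions, 0.303% were higher in every MPP3 than in every LT-HSC library, and 0.109% were lower, against 0 imprinted regions.

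The Dnmt3a mutation touches an enzyme that sets imprints. Averaged over cell types and Npm1 states, 6 libraries with the R878H allele stood against 8 without it. By limma no imprinted region passed the threshold, and none of the 134465 regions did (0%). At an unadjusted p under 0.05, 6 imprinted regions were higher and 3 lower in carriers (2.3%), against 2.86% of all regions. The median log2 difference was 0.04, with 215 of 390 positive (55.1%), against 0.00 and 49.5% over all regions. Over imprinted promoters the median was -0.03, with 14 of 29 positive. Among regions whose mean value reached 100 the imprinted median was 0.11, against 0.05 over all such regions. Differences of single regions ranged from -1.37 to 1.22 with SE of 0.25 to 0.68, so small changes were not detectable at this spread.

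**Figure D3:**
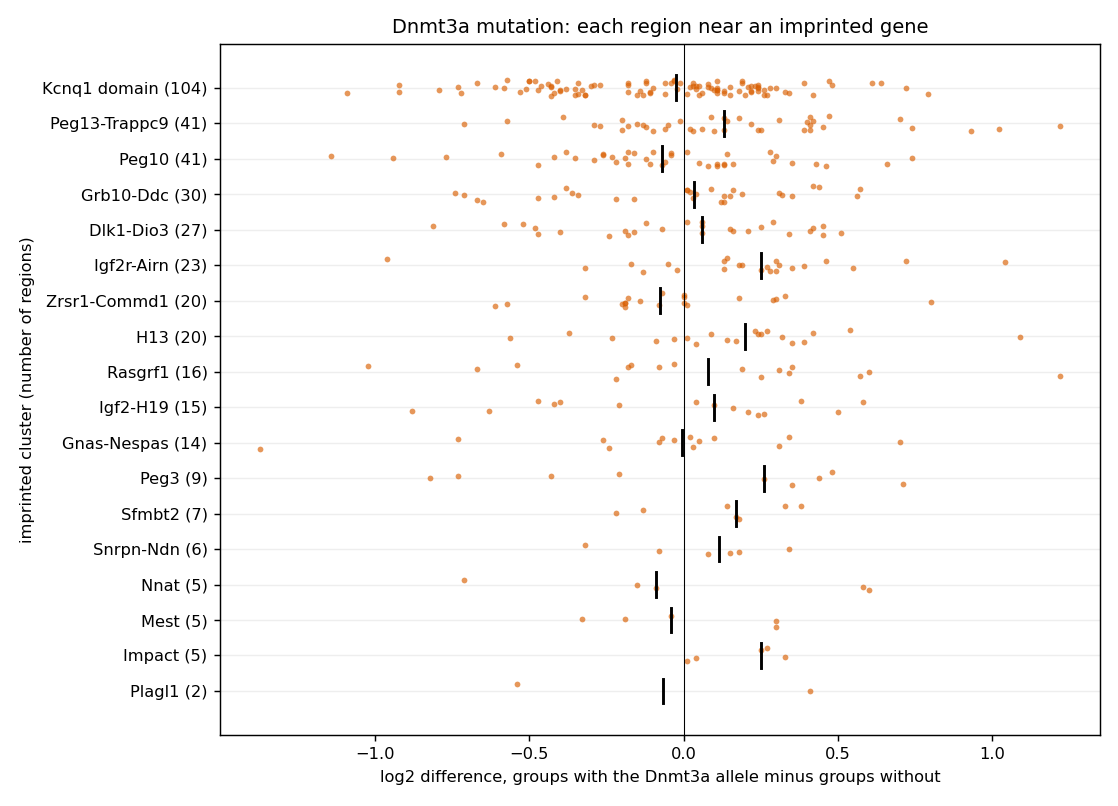
Log2 difference of scaled signal plus 4 between libraries with and without the Dnmt3a R878H allele (x axis), for each of the 390 regions by cluster, with a bar at the cluster median. Points lie on both sides of 0 in most clusters, between -1.37 and 1.22, and the 5 Impact regions are all above 0.

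At the 5 printed promoters, carriers and non-carriers of the Dnmt3a allele overlapped in both MPP3 and LT-HSC, and each adjusted p was 1 by limma. Kcnq1ot1 had 222.3, 324.3 and 328.2 in MPP3 carriers and 287.7, 399.4 and 506.7 in MPP3 non-carriers. In LT-HSC it had 323.7, 329.2 and 396.9 in carriers and 155.7, 211.7 and 372.7 in non-carriers (log2 difference 0.11, SE 0.27). The direction of the medians thus differed between the cell types, with no difference past the threshold. Peg3 had 59.6, 142.6 and 256.0 in MPP3 carriers, against 109.6, 147.2 and 153.1 in non-carriers, and 93.3, 172.9 and 175.8 in LT-HSC carriers, against 116.2, 170.7 and 219.5 (-0.21, SE 0.30). Mest had 45.9, 48.1 and 94.9 in MPP3 carriers, against 33.5, 52.5 and 55.6 in non-carriers, and 6.9, 30.1 and 64.9 in LT-HSC carriers, against 24.0, 54.4 and 94.5 (-0.19, SE 0.42). For Peg3 the widest spread was among the MPP3 carriers, from 59.6 to 256.0.

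Nnat and Plagl1, the other printed promoters, had the most negative differences of the 5. Nnat had 4.2, 30 and 34.2 in MPP3 carriers, against 26.5, 34.3 and 51.4 in non-carriers, and 20.1, 47.2 and 60.8 in LT-HSC carriers, against 22.7, 70.8 and 110.4 (-0.71, SE 0.45). Plagl1 had 30, 52.7 and 95.1 in MPP3 carriers, against 60.4, 88.8 and 95.8 in non-carriers, and 34.7, 65.3 and 79.6 in LT-HSC carriers, against 73.2, 84.8 and 116.2 (-0.54, SE 0.34). In each case carriers reached lower than any non-carrier in both cell types and overlapped them at the top. The promoter regions of Grb10 (0.15, SE 0.28), Airn (0.14, SE 0.30) and Igf2r (0.31, SE 0.32) differed by about their SE or less. So did the strongest Gnas region, over several promoter windows (-0.08, SE 0.26).

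By cluster, Igf2r-Airn had a median of 0.25 with 17 of 23 regions positive, H13 had 0.20 with 15 of 20, Impact had 0.25 with 5 of 5 and Peg13-Trappc9 had 0.13 with 26 of 41. The Kcnq1 domain had -0.03 with 50 of 104, Peg10 -0.07 with 17 of 41 and Dlk1-Dio3 0.06 with 15 of 27. Neighbouring regions share libraries and often a gene, so these counts are descriptions.

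Of the 9 regions at an unadjusted p under 0.05, 3 lay in Trappc9. At chr15:72963946-72964461 all 6 carriers were above all 8 non-carriers, with 54.9, 68.6 and 112.9 as lowest, median and highest in carriers and 19.5, 35.5 and 46.5 in non-carriers (log2 difference 1.02, SE 0.38, adjusted p = 1 by limma). Of all tested regions, 0.0245% were higher in every carrier and 0.0260% were lower, against 0 imprinted regions that were lower. At chr15:72916722-72918065, MPP3 had 134.9 and 75.2 with Dnmt3a alone, 110.5 and 120.6 with Npm1 alone, 94.7 with the alleles combined and 35.8 and 86.6 in WT. LT-HSC had 143.6 with Dnmt3a alone, 103.8 and 63.0 with Npm1 alone, 129.6 and 119.9 with the alleles combined and 22.7 and 18.5 in WT there (0.93, SE 0.33, adjusted p = 1 by limma). The LT-HSC WT libraries were the lowest of that cell type, also below the Npm1 libraries without the Dnmt3a allele.

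The lowest difference of any imprinted region was at Nespas (chr2:174279644-174280979), the antisense RNA that runs through the Gnas control region. MPP3 had 74.9 and 15.7 with Dnmt3a alone, 72.2 and 50.5 with Npm1 alone, 25.4 with the alleles combined and 57.0 and 38.0 in WT. LT-HSC had 23.8 with Dnmt3a alone, 125.1 and 105.0 with Npm1 alone, 12.1 and 11.3 with the alleles combined and 50.9 and 57.4 in WT (-1.37, SE 0.41, adjusted p = 1 by limma). The LT-HSC carriers had 11.3 to 23.8 and the non-carriers 50.9 to 125.1, and in MPP3 a Dnmt3a library at 74.9 was the highest of its cell type. The region was picked for its small p in this comparison. The share of all tested regions that separate this way in LT-HSC was not computed. In H13, the region over the promoter of Mcts2 (chr2:152686743-152687200), the imprinted retrogene inside an H13 intron, had 48.7 and 53.3 with Dnmt3a alone, 14.2 and 10.3 with Npm1 alone, 15.6 with the alleles combined and 28.0 and 6.3 in WT among MPP3. In LT-HSC it had 53.0 with Dnmt3a alone, 21.3 and 49.5 with Npm1 alone, 103.5 and 52.1 with the alleles combined and 15.8 and 19.5 in WT (1.09, SE 0.49, adjusted p = 1 by limma). Groups overlapped in MPP3, where the Dnmt3a;Npm1 library lay among the non-carriers. Also with an unadjusted p under 0.05 were regions of Ppp1r9a (-1.14, SE 0.46), Ascl2 (-0.92, SE 0.45), Igf2r (1.04, SE 0.51), Trappc9 (chr15:72899225-72899559, 1.22, SE 0.50) and Rasgrf1 (1.22, SE 0.53), each at an adjusted p of 1 by limma.

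**Figure D4:**
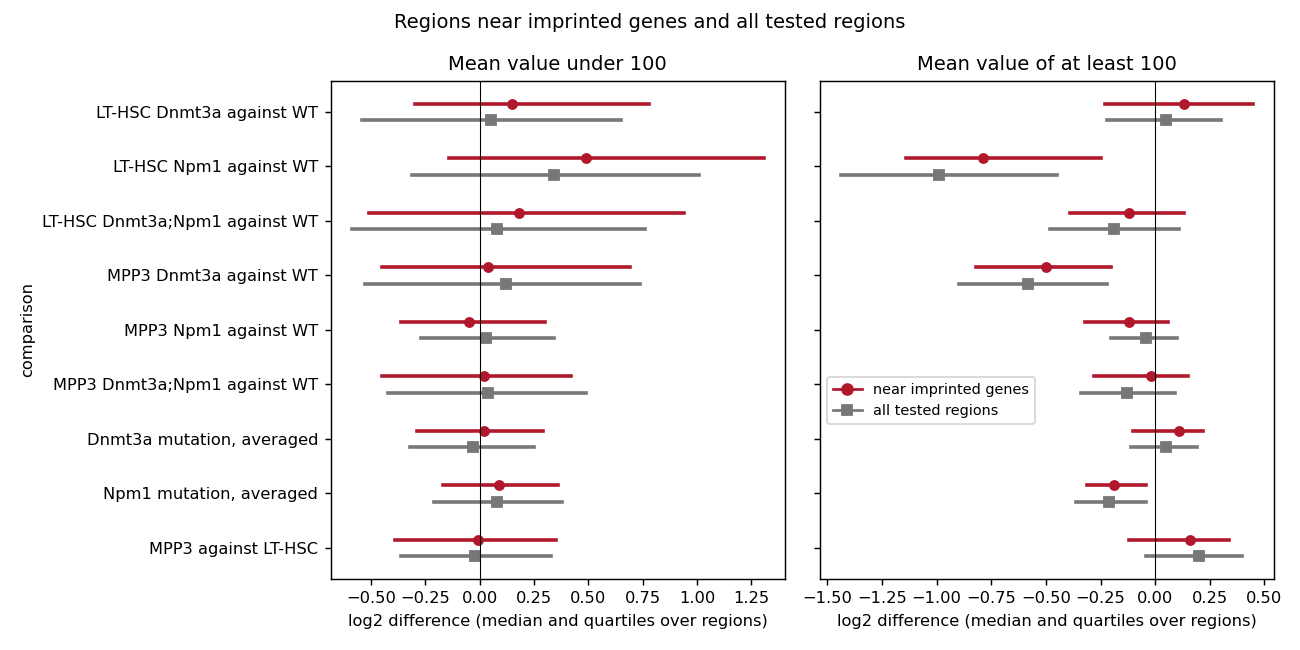
Median (point) and interquartile range (bar) of log2 differences in 9 comparisons, for imprinted regions (red) above all tested regions (grey), split at a mean deposited value of 100. In LT-HSC Npm1 against WT, regions of at least 100 lie below 0 (median -0.79 in imprinted and -0.99 in all) and weaker regions above it (0.49 and 0.34).

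LT-HSC Npm1 against WT was the comparison in which imprinted regions passed the threshold, and they did so in both directions. By limma 4 regions rose and 3 fell (1.79% of 390), against 2.70% of all tested regions (0.510% higher and 2.19% lower). The imprinted share was thus not above that of all regions. Those that rose were weak regions of Grb10, Trappc9 and Rasgrf1, and those that fell were strong regions of Trappc9 and Impact. The same split held over the list and over all regions. Where the mean value reached 100 the imprinted median was -0.79 with 10 of 65 positive, against -0.99 over all such regions. Below 100 it was 0.49 with 228 of 325 positive, against 0.34. The share of signal in tested regions was 44.7% and 41.0% in the Npm1 libraries, against 68.2% and 54.8% in WT. A fit of LT-HSC Npm1 against WT with that share as a covariate called 0 of the 390 and 0 of all regions by limma, with 25 of the 390 at an unadjusted p under 0.05 (6.41%), against 5.5% of all regions. The split also turned with the scaling. Cyclic loess called 1 imprinted region higher and 0 lower (75 higher and 6 lower over all), and factors from regions whose mean value reached 100 called 3 of 65 higher and 0 lower (580 and 639 over all). Scaling to the library total called 4 higher and 5 lower (2.31%), against 3.91% of all regions (642 higher and 4615 lower).

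At the 3 regions that fell, both Npm1 libraries were below both WT libraries, as in 23.9% of all tested regions. Trappc9 at chr15:72928493-72929801 had 186.3 and 88.5 in Npm1, against 569.4 and 370.7 in WT (log2 difference -1.80, SE 0.49, adjusted p = 0.0413 by limma). A region 5831 bp outside Trappc9 (chr15:73067069-73068582) had 179.6 and 106.5 in Npm1, against 603.1 and 415.4 in WT (-1.82, SE 0.51, adjusted p = 0.0454 by limma). Impact at chr18:12972723-12974753 had 216.9 and 186.0 in Npm1, against 1026.7 and 444.6 in WT (-1.73, SE 0.50, adjusted p = 0.0489 by limma). The other Impact regions were also lower, giving 0 of 5 positive and a median of -0.84. Of these 5 regions, 4 had a mean value of at least 100. All tested regions at that level had a median of -0.99, with 12% positive, so Impact was not lower than such regions.

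The 4 regions that rose were low in WT, at about 1 to 13 reads, and both Npm1 libraries were above both WT libraries, as in 24.2% of all tested regions. Grb10 at chr11:11925768-11926672, 3827 bp outside the gene, had 79.8 and 67.5 in Npm1, against 3.4 and 1.9 in WT, which is about 26 and 47 reads against 2 and 1 (3.54, SE 0.84, adjusted p = 0.0275 by limma). Trappc9 at chr15:72860160-72861088 had 106.4 and 49.5 in Npm1, against 2.1 and 8.8 in WT, about 35 and 35 reads against 1 and 5 (3.13, SE 0.82, adjusted p = 0.0369 by limma). In Rasgrf1, chr9:90020570-90022511 had 125.1 and 115.5 in Npm1, against 22.7 and 18.5 in WT, about 41 and 81 reads against 13 and 10 (2.34, SE 0.64, adjusted p = 0.0422 by limma). Another Rasgrf1 region (chr9:90026294-90027082) had 89.1 and 36.0 in Npm1, against 2.1 and 1.9 in WT, each the lowest value of its WT library and about 1 read (3.35, SE 0.95, adjusted p = 0.048 by limma). Fitted differences at so few reads depend on the added constant and are no bound. Over Rasgrf1 as a whole, 13 of 16 regions were positive with a median of 1.54, and all 9 Peg3 regions were positive with a median of 0.99. In each of these clusters 1 region had a mean value of at least 100. All tested regions under 100 had a median of 0.34, with 63.6% positive.

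These calls rested on few libraries. Fewer of the 390 were called by limma when Npm1 or WT was left with 1 library, which lowers the power at every region. Over all 14 fits of LT-HSC Npm1 against WT that left out 1 library, no called region changed direction. The log2 difference was 3.38 to 3.68 at the Grb10 region and 2.58 to 3.67 at the weak Trappc9 region. At the Rasgrf1 regions it was 2.22 to 2.46 and 2.75 to 3.98. The strong Trappc9 regions had -2.33 to -1.29 and -2.19 to -1.46, and Impact had -2.33 to -1.13. Under the other constants, filters, scalings, block and covariate the ranges were wider. The strong Trappc9 regions then had -2.5 to -0.56 and -2.52 to -0.51, and Impact had -2.44 to -0.24. The Grb10 region had 2.26 to 4.36 and the weak Trappc9 region 2.08 to 3.75. The Rasgrf1 regions had 1.01 to 2.5 and 2.04 to 4.27. The sizes of these differences thus depended on the processing.

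**Figure D5:**
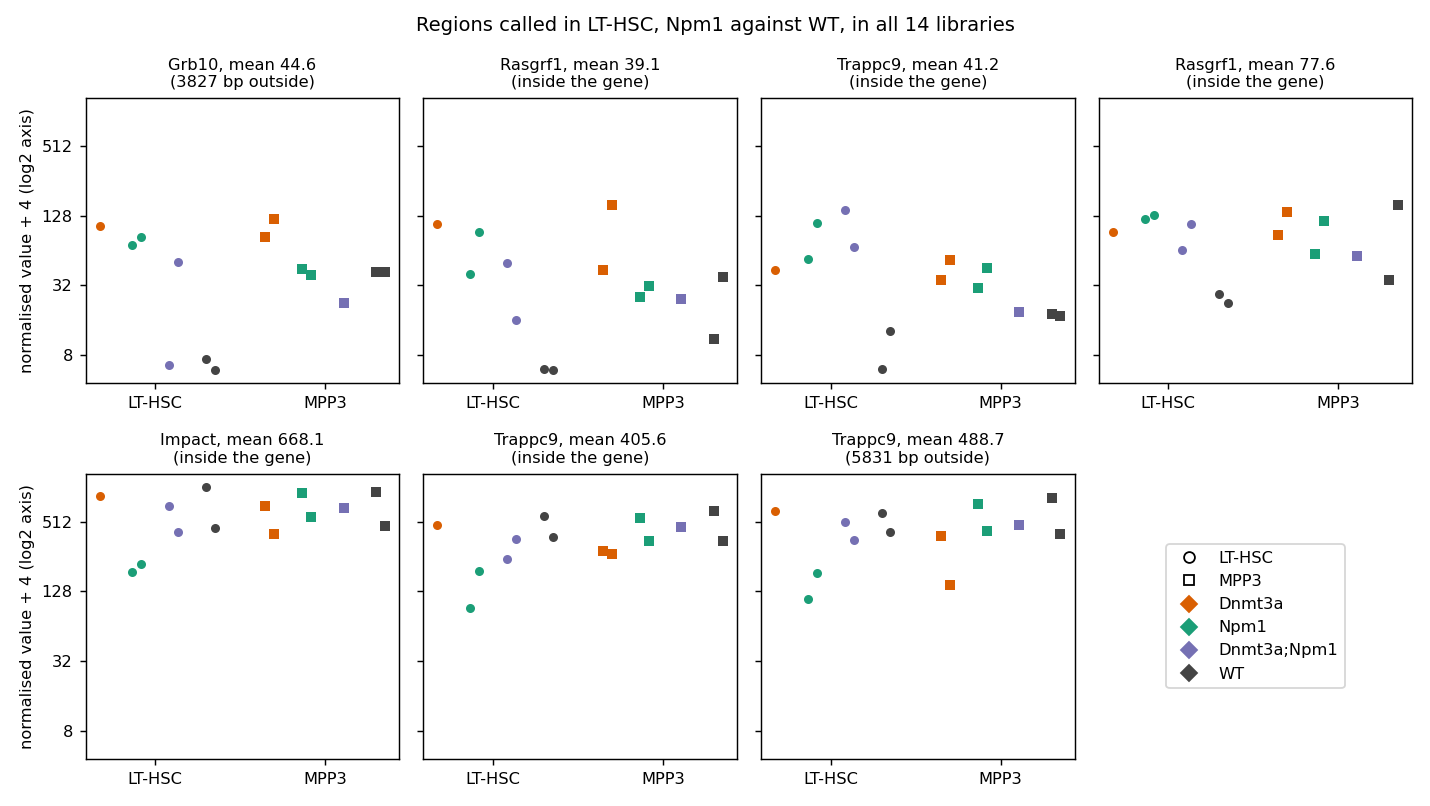
Scaled signal plus 4 (log2 axis) of the 7 called regions in all 14 libraries, by cell type and genotype in the order Dnmt3a, Npm1, Dnmt3a;Npm1 and WT. In LT-HSC the Npm1 points lie above the WT points at 4 regions and below them at 3.

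In MPP3 Npm1 against WT none of the 390 was called and none reached an unadjusted p under 0.05, against 0% called and 0.0989% at that p over all regions. The Grb10 region had 18.6, 38.0 and 114.9 over the MPP3 libraries, 99.7 in LT-HSC Dnmt3a and 47.2 and 2.6 in LT-HSC Dnmt3a;Npm1. The Impact region had 852.2 in LT-HSC Dnmt3a and 414.0 and 696.7 in LT-HSC Dnmt3a;Npm1, each above both Npm1 libraries. Averaged over cell types and Dnmt3a states, the Npm1 mutation gave 0 calls by limma, with 9 regions higher and 5 lower at an unadjusted p under 0.05 (3.6%), against 0% called and 4.08% over all regions. No imprinted region was higher or lower in all 7 Npm1 carriers than in all 7 non-carriers (0 of 390), against 0.0223% higher and 0.0171% lower over all regions.

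In LT-HSC Dnmt3a;Npm1 against WT, 0 imprinted regions were called by limma, against 0.00149% of all regions, with 28 higher and 12 lower at an unadjusted p under 0.05 (10.3%, against 9.00% of all). The Trappc9 region at chr15:72860160-72861088 again led, with 65.3 and 138.1 in Dnmt3a;Npm1, against 2.1 and 8.8 in WT (3.50, SE 0.82, adjusted p = 0.244 by limma). This comparison and that of Npm1 share the WT libraries, which had about 1 and 5 reads there. Peg3 had 8 of 9 regions positive with a median of 1.41, and Mest had 1 of 5 positive with a median of -1.44. Over all tested regions the median was -0.01, with 49.5% positive. Summed over its regions, Peg3 had 414 and 1054 in Dnmt3a;Npm1 A and B, against 228 and 425 in WT A and B. Dnmt3a;Npm1 A thus lay below WT B, and the Peg3 median leaned on library B. Mest summed to 146 and 209 in Dnmt3a;Npm1, against 305 and 280 in WT. Over 14 fits that each left out 1 library, the difference at the leading Trappc9 region was 2.95 to 4.03. In LT-HSC Dnmt3a, a lone library assumed to vary like the other groups, 0 were called, with 9 higher and 4 lower at an unadjusted p under 0.05 (3.3%), against 0% called and 2.74% over all regions.

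In MPP3 Dnmt3a against WT, 0 of the 390 were called by limma, against 0.00223% of all regions, and 7 were higher and 11 lower at an unadjusted p under 0.05 (4.6%, against 9.55% of all). The smallest adjusted p was 0.204 by limma, inside Ppp1r9a at chr6:4978871-4979310, with 3.7 and 2.1 in Dnmt3a, against 43.6 and 115.4 in WT (-3.46, SE 0.83). Both Dnmt3a values are the lowest of their libraries, so this difference too depends on the added constant. The lone MPP3 Dnmt3a;Npm1 library gave 0 calls against WT and 0.3% of imprinted regions at an unadjusted p under 0.05, against 0% called and 0.608% over all regions. Tests of the difference itself, of the Dnmt3a effect between MPP3 and LT-HSC and of Dnmt3a by Npm1, gave 0 calls each by limma, with 5.6% and 5.4% of imprinted regions at an unadjusted p under 0.05, against 0% called each and 9.02% and 6.21% over all regions.

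The genes that write, copy, erase or read imprints were followed as a further list of 21 genes with 204 regions. In LT-HSC Npm1 against WT, 10 of the 204 fell and 1 rose by limma (5.39%), against 2.70% of all regions, and the list's median was -0.02. All 10 that fell were among its 46 regions whose mean value reached 100 (21.7%), and of all 25129 such regions 2842 fell (11.3%). No test set the list apart from other regions. The fit with the share of signal in tested regions as a covariate, given above, called 0 of all regions. The calls named here were therefore absent in it, and these regions were not run singly under the other alternatives. Those that fell included 2 regions at Dnmt3a itself (-2.14, SE 0.50 and -1.91, SE 0.51), regions of Uhrf1, which brings Dnmt1 to hemimethylated DNA (-1.84, SE 0.48), of the insulator protein gene Ctcf (-1.66, SE 0.47), of Ezh2 (-2.06, SE 0.47) and Eed (-1.95, SE 0.49) of the polycomb complex, and of Yy1, Kdm1b and Tet2. Tet3, which oxidizes methylated cytosine, had a region that fell (-2.13, SE 0.55) and another that rose (2.49, SE 0.61). For the Dnmt3a mutation the list had 0 calls and a median of 0.01, and for MPP3 against LT-HSC 0 calls and a median of 0.09.

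Another 20 imprinted or neighbouring genes had 121 regions. In LT-HSC Npm1 against WT, 1 of these rose, at Tfpi2, a protease inhibitor (2.41, SE 0.67), and 3 fell, at the phosphatase gene Inpp5f (-1.78, SE 0.47), the nucleosome chaperone Nap1l4 (-2.10, SE 0.49) and the ubiquitin ligase Ube3a (-2.17, SE 0.47), with adjusted p of 0.0204 to 0.0439 by limma. These 4 are 3.31% of the 121, against 2.70% of all regions. None of the 4 was called in the fit with the share of signal in tested regions as a covariate. The list's median was 0.20, against 0.32 for the 390 regions and 0.11 for all regions. For the Dnmt3a mutation it had 0 calls and a median of 0.04, and for MPP3 against LT-HSC 0 calls and a median of -0.10.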

How the data were processed

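Chromatin accessibility was measured by ATAC-seq in 14 libraries of sorted mouse MPP3 and LT-HSC, in 8 groups taken from the labels, 6 of 2 libraries and 2 of 1. The deposited file gives 1 signal value per region and library for 705361 regions of build mm10. The tools named in the submitters' processing notes are R 3.6.0, HOMER 4.10, edgeR 3.26.4 and DiffBind 2.12.0, without their roles. Aligner, peak caller and the rule for the region set are not given in the sources used here. Whole numbers fill the deposited signal table, but they are not raw counts. The authors multiplied reads by 1 factor per library and rounded, as the spacing of low values shows, with an estimated step of 0.384 to 2.618 per read. Where the step is under 1, neighbouring read numbers merge, so whole reads could not be recovered and no count test was run. Signal totals were 14683769 to 28748205 and estimated reads in regions 7300000 to 61200000. The factor can differ from that of later normalization, so every value was scaled again.

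From these, trimmed mean of M values (TMM) factors were computed over the 134465 regions whose mean value reached 30. On log2(value/factor + 4), limma 3.58.1 (R 4.3.3) was run with a term for each of the 8 groups, a robust trended prior variance and 6 residual degrees of freedom. Groups of 1 library were assumed to vary like the others. Tests were two-sided, called at a Benjamini-Hochberg adjusted p under 0.05 over all tested regions, in 11 comparisons. The script was tested on simulated data. Gene bounds and promoters came from RefSeq (GRCm38.p6, the assembly of mm10), without exons, so exonic and intronic positions are not given. Nespas was matched through its synonym. Named regions were those called, the 2 of smallest p per direction in each comparison, the strongest of each cluster and those over promoters. Some further regions (that of Sgce among them) were named after their values were seen. The genes and lists were chosen with earlier results of these data known. Alternatives were other constants, filters and scalings, a replicate block, a covariate for the share of signal in tested regions and leaving out each library. The labels do not say whether replicate letters pair libraries.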

Additional observations from a re-analysis of the deposited data

Results flagged for a closer look

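A region of Airn, the antisense RNA that silences Igf2r, was singled out (chr17:12853235-12854201). Carriers and non-carriers of the Dnmt3a allele did not overlap there, and carriers were higher in MPP3 and lower in LT-HSC. Only the 2 regions of smallest p per direction in the test of this difference were searched for it. The share of all tested regions with this pattern was not computed. In MPP3, carriers of the Dnmt3a allele had a scaled signal of 63.8, 77.2 and 82.4 (lowest, median and highest), against 34.2, 50.9 and 54.2 in non-carriers. In LT-HSC, carriers had 18.2, 33.8 and 56.3, against 76.5, 81.8 and 106.1 in non-carriers. The Dnmt3a difference in MPP3 minus that in LT-HSC was 1.90 on the log2 scale (SE 0.72, adjusted p = 0.499 by limma), so the test of the difference did not pass. The region by H19 at chr7:142570432-142571221 had a larger difference in this test (2.54, SE 0.82, adjusted p = 0.499 by limma). Its carriers and non-carriers overlapped in LT-HSC, at 25.1 to 63.4 and 56.4 to 115.8.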

How the results depend on the processing

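In LT-HSC Npm1 against WT, 7 of the 390 regions were called (1.79%), against 2.70% of all regions. The count was 1 with cyclic loess scaling (0.256%), against 0.0602% of all regions. With the share of signal in tested regions as a covariate it was 0, against 0% of all regions. The count was 0 with no filter on low values, 2 with a constant of 1 and 3 at a mean value of at least 100. With a replicate block it was 3. For no filter, a constant of 1 and the replicate block, the share of all regions called is not given here, so these counts have no background. Whether the replicate letters pair libraries is not known. Over 15 pairs of groups same-letter deviations correlated at -0.26 to 0.36, which does not settle it. Leaving out each library gave 0 to 10 calls there, and 0 to 5 in LT-HSC Dnmt3a;Npm1 against WT, which had 0. The other 9 comparisons had 0 calls under every alternative run. For single regions the alternatives were run on those called and those of smallest p in each comparison, 33 regions and not the other promoters or strongest regions. None of these reversed its direction, 87 values fell short of the threshold and 1 crossed it. Only the 7 called regions, all in LT-HSC Npm1 against WT, could fall short of the threshold. Each of the 87 values is thus a fit in which a called region lost its call. The lack of reversals does not mean that the calls held. Comparisons with a lone library could not be fitted without it. Scaling to the library total moved the median of all regions to -0.22 in MPP3 Dnmt3a against WT, to -0.03 in LT-HSC Npm1 against WT, to 0.13 in the Dnmt3a by Npm1 interaction and to -0.18 in the Dnmt3a difference between cell types. The median of the imprinted regions in LT-HSC Npm1 against WT was -0.35 to 0.41 over the alternatives, against 0.32, and -0.35 was the value for the same 390 regions when both the fit and its scaling used every deposited region. Depth limits the weak regions most, where a WT value was about 1 read. The causes were not tested.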
